A study of Mus musculus with 6 samples.

Results

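Epithelial-mesenchymal transition (EMT) genes were examined in the 22Rv1 prostate cancer cell line and in a subline made resistant to BL-B01D1. The 10 genes were chosen by symbol, and each symbol matched 1 of the 58735 genes in the count table. They are the epithelial genes CDH1 and ESRP1, the mesenchymal markers VIM, FN1 and CDH2, and the transcription factors TWIST1, SNAI1, SNAI2, ZEB1 and ZEB2. BL-B01D1 is a bispecific antibody-drug conjugate against EGFR and HER3 that carries a camptothecin-derived topoisomerase I inhibitor. The parental group was 22Rv1 given vehicle (3 libraries), and the resistant group was the 22Rv1 subline raised under stepwise increasing BL-B01D1 (3 libraries). No age or genetic change is given for either group, and the sources used here do not say whether the drug was present at harvest. Mouse is entered as the species in the labels, but the cell line and all gene identifiers are human. The subline came from 1 selection, and nothing says that the libraries of a group were separate cultures, so the p-values measure only the spread between these libraries.

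In an epithelial sheet, E-cadherin (encoded by CDH1) joins neighboring cells at adherens junctions, and ESRP1 directs the splicing of many transcripts toward their epithelial forms. During EMT, transcription factors of the SNAI, ZEB and TWIST families repress epithelial genes, and cells gain N-cadherin (CDH2), the intermediate filament protein vimentin (VIM) and the matrix protein fibronectin (FN1). The program is often partial, so that cells keep epithelial genes while they gain some mesenchymal ones.

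Total counts on genes ranged from 13821639 to 17251491 per library, where 3 counts correspond to 0.174 to 0.216 CPM (counts scaled to an effective library size of 1000000). Markers of prostate luminal epithelium were detected in both groups. Per length (FPKM, CPM divided by the listed gene length in kilobases), the keratin genes KRT8 and KRT18 were at 74.6 and 53.1 FPKM in parental and 78.2 and 47.0 FPKM in resistant cells, and the epithelial adhesion gene EPCAM was at 28.3 and 25.9 FPKM. In bulk RNA, a change in the share of cells that express a gene and a change in RNA per cell cannot be told apart.

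Of the 10 EMT genes, 7 had enough counts to be tested, and SNAI2, ZEB1 and ZEB2 did not. VIM rose 3.38-fold in resistant cells and was the only tested EMT gene called, that is, with an FDR under 0.05 and a log2 fold change beyond 1 in either direction. Among all 17142 genes tested, 2.53% were called higher and 2.84% lower. By FDR alone, CDH1 also rose and FN1 and ESRP1 fell, by smaller amounts, so that 4 of the 7 tested EMT genes passed, 2 in each direction. Of all genes tested, 35.5% passed by FDR alone, 17.1% higher and 18.4% lower. The mesenchymal markers thus did not move in 1 direction, and CDH1 was not lower in the cells with more VIM mRNA. CDH2, TWIST1 and SNAI1 did not pass the test. All FDR values are Benjamini-Hochberg adjusted p-values over the tested genes and come from the quasi-likelihood test of edgeR unless another test is named.

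**Figure D1:**
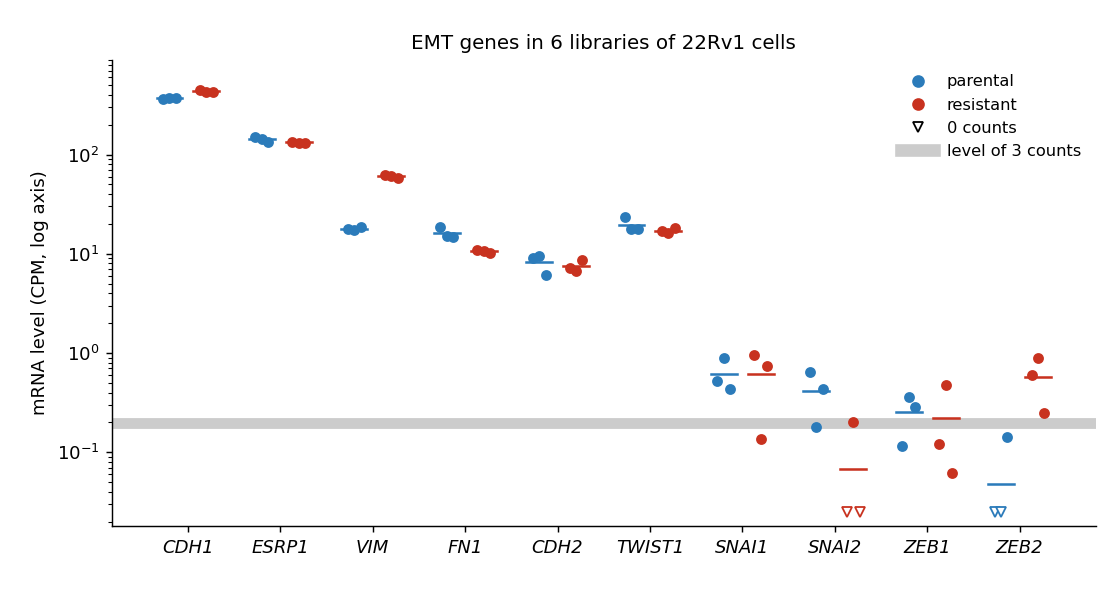
mRNA level of the 10 EMT genes (CPM, log axis) in each parental (blue) and resistant (red) library, with horizontal bars at group means, open triangles for 0 counts and a gray band at the level of 3 counts. VIM shows the widest separation between the groups among the tested genes, CDH1 stays above every other gene, and SNAI2, ZEB1 and ZEB2 lie near the level of 3 counts.

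CDH1 lies on the forward strand of chromosome 16 (hg38, 68737225 to 68835548). Its level was 364, 368 and 371 CPM in parental libraries 1 to 3 and 445, 431 and 427 CPM in resistant libraries 1 to 3. All resistant libraries lay above all parental ones. The group means were 368 ± 3.25 CPM (SD, n = 3) and 434 ± 9.58 CPM (SD, n = 3), with a log2 fold change of 0.24 (SE 0.0279, FDR 2.25e-09). The rise of 1.18-fold passed the FDR threshold but not the fold-change threshold. Genes listed within the span of CDH1, such as the pseudogene FTLP14, had at most 25 counts in any library. FTLP14 itself was called higher (log2 fold change 2.03, FDR 1.96e-04). It had 4, 6 and 6 counts in parental and 21, 25 and 20 in resistant libraries.

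ESRP1, the epithelial splicing regulator, lies on chromosome 8. Its level was 151, 144 and 134 CPM in parental libraries and 135, 132 and 130.1 CPM in resistant libraries. The groups overlapped, since parental library 3 lay under resistant library 1. The log2 fold change was −0.11 (SE 0.0397, FDR 0.0230), the smallest difference that passed among the EMT genes. The FDR rose above the threshold in 4 of the 6 fits that each left out 1 library, up to 0.201 without parental library 1, and was 0.0687 with DESeq2. Its log2 fold change stayed below 0 in each of the 6 fits, between −0.16 and −0.0703. Passing the FDR threshold, not the direction, thus depended on the library left out.

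VIM lies on the forward strand of chromosome 10 (hg38, 17228259 to 17237593) and encodes the intermediate filament protein of mesenchymal cells. It had 306, 290 and 257 counts in parental libraries and 1025, 893 and 942 counts in resistant libraries. These correspond to 17.8, 17.3 and 18.5 CPM in parental cells and 61.8, 60.7 and 58.1 CPM in resistant cells. The groups did not overlap, and the gap between them was many times the spread within either. The log2 fold change was 1.76 (SE 0.0671, FDR 2.32e-24). It ranged from 1.73 to 1.78 when each library was left out in turn, and VIM also passed glmTreat, the edgeR test for changes beyond a log2 value of 1 (FDR 1.19e-12). For this gene the exact permutation test over libraries gave p = 0.1 (two-sided), the smallest p that 3 libraries against 3 allow. Groups that do not overlap occurred in 44.8% of all genes tested.

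VIM-AS1, an antisense gene that overlaps the first 1727 bases of VIM and was looked at after its values were seen, also rose. It had 173, 155 and 121 counts in parental libraries and 322, 251 and 290 in resistant libraries, with a log2 fold change of 0.95 (SE 0.104, FDR 5.16e-10). Whether the counting used strand is not stated, so reads in the overlap could belong to either gene. With both genes summed, the log2 fold change was 1.53 (FDR 1.70e-24). VIM-AS1 took 32.0% to 36.1% of that sum in parental libraries and 21.9% to 23.9% in resistant libraries. The counts assigned to VIM thus rose more than those assigned to its antisense neighbor.

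FN1, on the reverse strand of chromosome 2 (hg38, 215360440 to 215436172), encodes fibronectin, a matrix glycoprotein that integrins bind. Its level was 18.6, 15.1 and 14.9 CPM in parental libraries and 10.9, 10.7 and 10.2 CPM in resistant libraries. Every resistant library lay under every parental one. FN1 fell 1.54-fold (log2 fold change −0.62, SE 0.107, FDR 8.45e-06), the opposite direction to VIM. Parental library 1 held the highest value, and without it the log2 fold change was −0.51 (FDR 4.36e-04). With limma on log2(FPKM + 1), a scale that understates changes of weakly expressed genes, it was −0.26 (FDR 0.0193).

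CDH2, on the reverse strand of chromosome 18 (hg38, 27950966 to 28177446), encodes N-cadherin, which often replaces E-cadherin during EMT. Its level was 9.11, 9.47 and 6.12 CPM in parental libraries and 7.24, 6.73 and 8.57 CPM in resistant libraries. All resistant libraries fell within the range of the parental ones. The log2 fold change was −0.14 (SE 0.146, FDR 0.489). An increase in CDH2 alongside VIM was not detected.

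**Figure D2:**
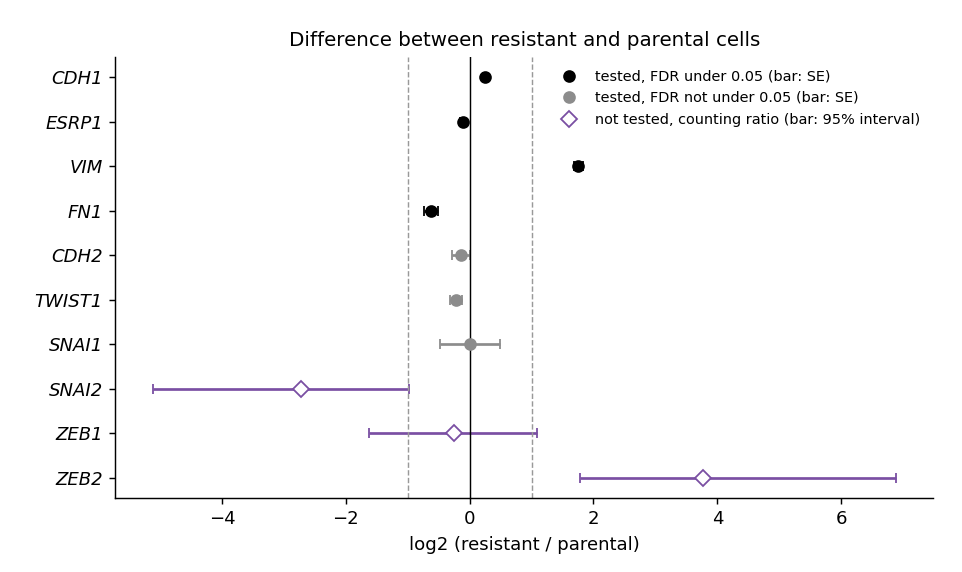
Log2 difference between resistant and parental cells for each EMT gene (horizontal axis). Circles are log2 fold changes of tested genes with SE bars, black where the FDR is less than 0.05, and open diamonds are ratios of summed counts for untested genes with 95% counting intervals. VIM alone among the tested genes lies beyond the dashed lines at −1 and 1, at 1.76, and the interval of ZEB1 spans 0.

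TWIST1, a basic helix-loop-helix factor on chromosome 7 (hg38, 19020991 to 19117672, reverse strand), was the most abundant of the 5 transcription factors among the 10 EMT genes. It had 405, 298 and 248 counts in parental libraries and 281, 237 and 293 in resistant libraries. In CPM these were 23.5, 17.7 and 17.9 in parental cells and 17.0, 16.1 and 18.1 in resistant cells. Parental library 1 stood above the other 5 libraries, which lay close together. The log2 fold change was −0.21 (SE 0.0972, FDR 0.0842). It moved to −0.0619 (FDR 0.700) without parental library 1, while leaving out parental library 2 or 3 gave an FDR of 0.0334 and 0.0411. The value for TWIST1 thus depended on parental library 1.

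SNAI1, a zinc finger repressor of CDH1 on chromosome 20 (hg38, 49982999 to 49988886, forward strand), was weakly expressed, with 9, 15 and 6 counts in parental libraries and 16, 2 and 12 in resistant libraries. Each group held 30 counts in total, and resistant library 2 had the lowest value of all. The log2 fold change was 0.0074 (SE 0.489, FDR 0.992). The ratio of the summed counts was 1.01, with a 95% counting interval of 0.587 to 1.73, so changes within these bounds were not detectable at this depth. Such intervals, exact and conditional on the total, cover counting error only.

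SNAI2, which encodes the SNAI1 relative Slug, had 11, 3 and 6 counts in parental libraries and 0, 3 and 0 in resistant libraries. The summed counts fell from 20 to 3, a ratio of 0.151 with an interval of 0.0288 to 0.510, but parental library 2 and resistant library 2 had 3 counts each, so the groups overlapped. ZEB2, on the reverse strand of chromosome 2 (hg38, 144364364 to 144524583), went the other way, from 0, 0 and 2 counts in parental libraries to 10, 13 and 4 in resistant libraries. Its ratio was 13.6, with an interval of 3.42 to 118, and all resistant libraries lay above all parental ones. In a fit without the filter on low counts, the FDR was 0.00103 for ZEB2 and 0.0389 for SNAI2. Both genes were nonetheless barely expressed, and no library exceeded 0.884 CPM for either of them.

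ZEB1, the other ZEB family repressor, lies on the forward strand of chromosome 10 (hg38, 31318495 to 31529814). It had 2, 6 and 4 counts in parental libraries and 2, 7 and 1 in resistant libraries. The ratio was 0.840, with an interval of 0.325 to 2.12, and the groups overlapped. The antisense gene ZEB1-AS1, which overlaps its first 1953 bases and was looked at after its values were seen, was far more abundant, with 102 to 180 counts in parental and 132 to 144 in resistant libraries. The log2 fold change of ZEB1-AS1 was −0.0903 (SE 0.131, FDR 0.644).

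Levels of different genes were compared per length as FPKM. CDH1 was highest in both groups, at 59.5 ± 0.526 FPKM (SD, n = 3) in parental and 70.3 ± 1.55 FPKM (SD, n = 3) in resistant cells, above 96.1% and 96.9% of the tested genes. ESRP1 followed, at 29.3 ± 1.81 FPKM (SD, n = 3) and 27.1 ± 0.509 FPKM (SD, n = 3). VIM was at 3.46 ± 0.122 FPKM (SD, n = 3) in parental cells, above 45.1% of the tested genes, and at 11.7 ± 0.376 FPKM (SD, n = 3) in resistant cells, above 74.4% of them. In parental cells it stood under TWIST1 and in resistant cells above it. TWIST1 was at 9.69 ± 1.62 FPKM (SD, n = 3) in parental and 8.38 ± 0.480 FPKM (SD, n = 3) in resistant cells. CDH2 (1.66 and 1.52 FPKM in parental and resistant cells), FN1 (0.937 and 0.610 FPKM) and SNAI1 (0.365 and 0.364 FPKM) came next, and SNAI2, ZEB1 and ZEB2 reached at most 0.188 FPKM in any library. Neighbors in this order did not overlap, except ZEB1, ZEB2 and SNAI2 in resistant cells. This spread between libraries does not cover the listed gene lengths, on which the order also rests. In CPM, FN1 stood above CDH2, at 16.2 against 8.23 in parental and 10.6 against 7.51 in resistant cells. Their listed lengths are 17315 and 4950 bases.

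Within single libraries, where scaling of the library size plays no part, the CDH1 level per length exceeded that of VIM 17.1-, 17.8- and 16.7-fold in parental cells and 6.01-, 5.93- and 6.15-fold in resistant cells. E-cadherin mRNA thus remained the more abundant transcript in every library, in counts as well. The size of such ratios rests on the listed gene lengths, which are the same for both groups. The excess of CDH1 over CDH2 was 32.0-, 31.2- and 48.5-fold in parental and 49.3-, 51.3- and 40.0-fold in resistant libraries, and these ranges overlapped.

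**Figure D3:**
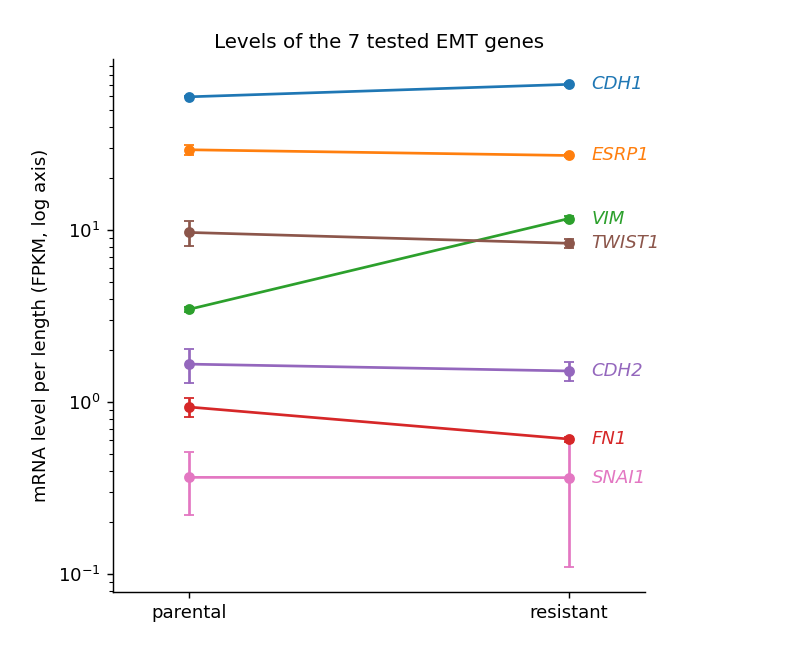
Level per length (FPKM, log axis) of the 7 tested EMT genes in parental and resistant cells, shown as means of 3 libraries with SD bars. The VIM line climbs from 3.46 to 11.7 FPKM and crosses that of TWIST1, while the other lines stay nearly flat or, for FN1, descend.

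The 3 tested genes whose centered log2 CPM profiles lay nearest to that of VIM over the 6 libraries were the pseudogene ZDHHC8P1 (Euclidean distance 0.111), CROT, a peroxisomal carnitine acyltransferase (0.140), and MAP1B, a microtubule-associated protein (0.164). Their log2 fold changes were 1.76, 1.70 and 1.68, near that of VIM (1.76). With 3 close libraries per group, such a distance largely follows from the difference between the groups. Joint regulation with VIM was not tested.

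Genes surrounding this program were then examined in 6 lists, read against 5.37% of all tested genes called in either direction and a median log2 fold change of 0.0038 over all of them. In the list of further EMT transcription factors, 1 of 14 tested genes was called higher and 2 lower, with a median of −0.20. Without the fold-change threshold, 2 of the 14 passed the FDR threshold higher and 7 lower, against 17.1% and 18.4% of all tested genes. PRRX1, a homeobox factor of mesenchymal cells, went from 85, 62 and 51 counts in parental libraries to 9, 13 and 4 in resistant libraries (log2 fold change −2.89, SE 0.311, FDR 3.96e-10). FOXQ1, a forkhead factor, was also called lower, at −2.03 (SE 0.531, FDR 0.00218). It was weakly expressed, with 22, 14 and 11 counts in parental and 3, 7 and 1 in resistant libraries. The inhibitors of helix-loop-helix factors diverged, since ID3 was called higher (log2 fold change 1.01, FDR 1.11e-26) and ID1 fell (−0.92, FDR 5.94e-26). In level per length, ID1 stood at 305 FPKM and ID3 at 75.9 FPKM in parental cells, against 162 and 153 FPKM in resistant cells.

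Among epithelial gatekeepers, the regulators that maintain epithelial identity, 1 of 15 tested genes was called, and the median was −0.012. GATA3, a luminal transcription factor, went from 7, 5 and 15 counts in parental libraries to 143, 141 and 181 in resistant libraries (log2 fold change 4.09, SE 0.25, FDR 2.45e-17). The most abundant genes of this list were FOXA1, a pioneer factor of luminal cells (114 and 101 FPKM in parental and resistant cells, log2 fold change −0.17, FDR 4.32e-06), and PTPRF, a receptor phosphatase (0.075, FDR 0.0203). A further 5 genes of the list passed the FDR threshold, ELF3 upward and EHF, KLF4, ELF5 and RBM47 downward, and 7 did not pass, where 35.5% of all tested genes passed.

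In the cadherin-catenin list, 1 of 15 tested genes was called. CTNND2, which encodes the neural catenin δ-2, had 21, 43 and 23 counts in parental and 129, 134 and 151 in resistant libraries (log2 fold change 2.26, SE 0.198, FDR 1.42e-12). Other tested catenins, which tie E-cadherin to actin and stabilize it at the membrane, differed by less than the fold-change threshold. CTNNA1 fell (−0.48, FDR 9.50e-19) and CTNND1 rose (0.18, FDR 2.12e-06). CTNNB1 (−0.0569, FDR 0.108) and JUP (0.0044, FDR 0.940) did not pass the FDR threshold. Of 34 genes tested in the list of tight junctions, desmosomes and polarity, CLDN1 was called higher (1.92, FDR 2.90e-06) and CGNL1, which encodes a cingulin-like junction protein, lower (−1.32, FDR 1.43e-04). CLDN1 had low counts, at 12, 14 and 8 in parental and 42, 38 and 48 in resistant libraries. The most abundant genes of the list, MAL2 and CLDN3, had log2 fold changes of −0.0662 (FDR 0.143) and −0.21 (FDR 5.44e-04). The medians of these lists were −0.0569 and −0.0175.

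The mesenchymal list of cytoskeleton and surface genes had 20 tested genes, of which 0 were called higher and 3 lower. The largest difference was that of MSN, which encodes the membrane-actin linker moesin, from 177, 147 and 116 counts in parental to 34, 46 and 29 in resistant libraries (log2 fold change −1.99, SE 0.183, FDR 6.14e-12). NT5E, an ecto-nucleotidase, and CD44, the hyaluronan receptor, were at −1.35 (FDR 0.00872) and −1.10 (FDR 5.73e-18). The counts of NT5E were low, at 26, 21 and 18 in parental and 14, 8 and 3 in resistant libraries. TAGLN2 and ITGB1 were the most abundant, with log2 fold changes of 0.015 (FDR 0.689) and 0.0865 (FDR 0.0269). By FDR alone, 4 genes of this list rose and 6 fell, where 17.1% of all tested genes were higher and 18.4% lower by that threshold.

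Of the 22 tested matrix and protease genes of the mesenchymal state, 4 were called higher and 7 lower, which is 50% of those tested, and the median was −0.43. THBS1, which encodes thrombospondin 1, had 246, 230 and 172 counts in parental and 950, 860 and 975 in resistant libraries (log2 fold change 2.12, SE 0.072, FDR 4.09e-26). The collagen genes COL6A3 (1.16) and COL5A1 (1.11) and the tenascin gene TNC (1.03) were also called higher. COL6A3 had low counts, at 13, 16 and 17 in parental and 36, 26 and 41 in resistant libraries. LUM, the small proteoglycan lumican, went from 1712, 1571 and 1322 counts to 431, 441 and 492 (−1.74, FDR 1.11e-26). The protease inhibitor SERPINE2 (−1.63), the matrix genes FBLN1 (−1.37) and COL6A1 (−1.35) and the matricellular gene CTGF (−1.77) were called lower as well. At the FDR threshold alone, 5 genes of this list were higher and 12 lower, where 17.1% of all tested genes were higher and 18.4% lower. Both directions thus occurred within this list, as for VIM and FN1, but more of its genes were lower than higher. TIMP1, the most abundant gene of the list, was at 37.3 and 37.1 FPKM in parental and resistant cells, with a log2 fold change of −0.0084 (FDR 0.933).

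**Figure D4:**
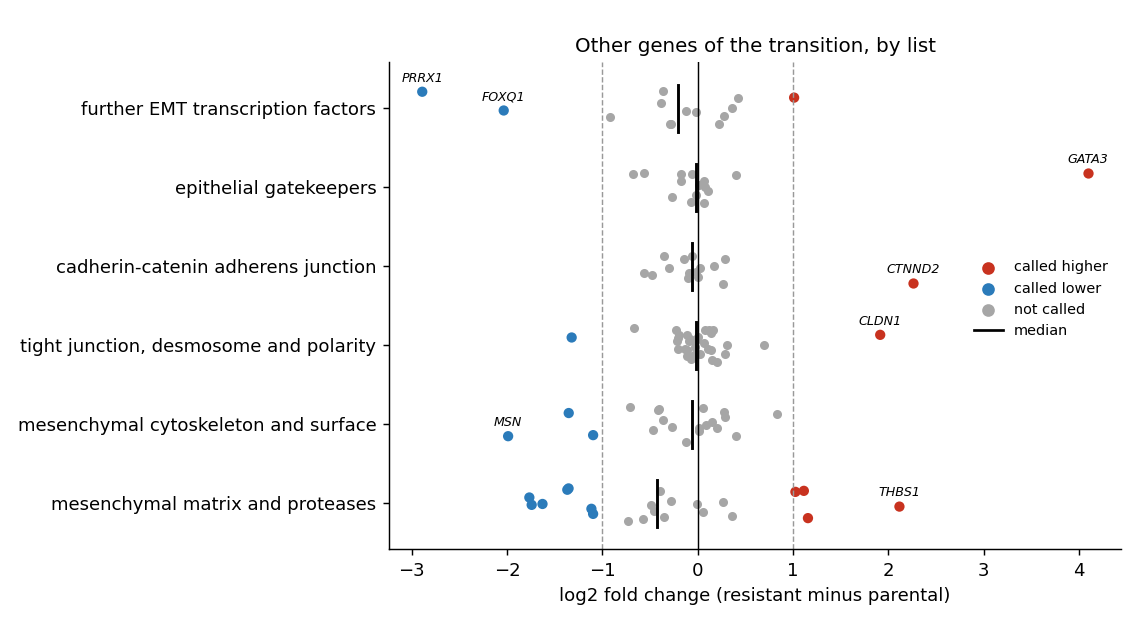
Log2 fold change (resistant minus parental, horizontal axis) of each tested gene in 6 lists of EMT-related genes, in red or blue where called higher or lower and in gray otherwise, with black bars at list medians. Junction and gatekeeper genes gather around 0 apart from GATA3, CTNND2, CLDN1 and CGNL1, whereas matrix and protease genes spread to both sides.

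Markers of other cell types were measured in the same libraries. Of 8 fibroblast markers, 4 were tested and FAP had 0 counts in every library. Their summed level was 112 to 115 CPM in parental and 39.6 to 44.7 CPM in resistant libraries, most of it from LUM. COL1A2 had at most 2 counts in any library. COL1A1, by contrast, had 231, 259 and 190 counts in parental and 193, 164 and 199 in resistant libraries (log2 fold change −0.28, FDR 0.0348). The 5 endothelial markers had at most 3 counts and the 5 leukocyte markers at most 12 counts in any library, with KDR, CDH5, MS4A1 and CD3E at 0 throughout. Of the 4 fibroblast markers tested (LUM, COL1A1, DCN and COL3A1), 0 were called higher and 1 lower, LUM, which the matrix list also holds. Among all genes tested, 2.53% were called higher and 2.84% lower, so a count over 4 genes says little.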

How the data were processed

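RNA-Seq counts of 6 libraries were analyzed, 3 of parental 22Rv1 cells and 3 of the resistant subline, grouped by the sample titles. The authors mapped poly(A)-selected reads to hg38 with HISAT2 (2.0.5), counted them per gene with featureCounts (1.5.0-p3) and deposited raw counts, which are whole numbers without normalization. The annotation release and the strand setting are not given in the sources used here. The file also lists another quantity deposited by the authors, gene length in bases, which was used for FPKM.

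Genes were filtered with filterByExpr, scaled with TMM and tested with the quasi-likelihood test of edgeR (4.0.16, R 4.3.3). SE is the absolute log2 fold change divided by the square root of F. Genes were called at the study's thresholds. limma (3.58.1), DESeq2 (1.42.0), other filters and scalings, and fits without each library served as alternatives. Scripts were tested on simulated counts. The members and lists were chosen with earlier results of these data known. Genes named from a list are up to 5 called in each direction and the 2 most abundant. Other gatekeepers past the FDR threshold and the catenins CTNNB1 and JUP were named in addition. List symbols absent from the table were matched through older symbols (MPP5, CTGF, CYR61). Some markers of the luminal list are not reported here.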

Additional observations from a re-analysis of the deposited data

How the results depend on the processing

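VIM was called higher under all 11 other settings and in all 6 fits without 1 library, with log2 fold changes of 1.51 to 1.77 and 1.73 to 1.78. The sum with VIM-AS1 (1.53) was chosen after seeing the data. The number of EMT genes called higher was 2, with ZEB2 added, and called lower 1, SNAI2, without a filter, which admits weakly expressed genes. With glmTreat, 1 EMT gene passed higher and 0 lower. That test asks for changes beyond a log2 value of 1, which CDH1 (0.24), FN1 (−0.62) and ESRP1 (−0.11) do not reach. The causes of the other changes were not tested. By FDR alone, DESeq2 and limma on log2(FPKM + 1) left 1 lower, and without 1 library the number lower ranged from 1 to 3. Requiring at least 10 counts in every library, the called genes fell to 1 of the further transcription factors, 0 gatekeepers and 1 of the tight junction list. Of all 15396 genes tested with that filter, 248 were called higher and 287 lower, against 434 and 487 of 17142 in the main fit. With glmTreat, the called genes fell to 1 transcription factor, 1 tight junction gene, 1 cytoskeleton or surface gene and 5 matrix genes. Of all 17142 genes, glmTreat called 178 higher and 144 lower. With limma on log2(FPKM + 1), the called genes fell to 1 transcription factor, 0 genes of the cadherin, tight junction and cytoskeleton lists, and 4 matrix genes. Of all 17142 genes, that fit called 116 higher and 64 lower.

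SNAI1, near 0, changed sign with limma-voom (−0.27), library size alone (−0.0089), limma on log2(FPKM + 1) (−0.014) and the replicate block (−0.033), and ranged from −0.46 to 0.45 with 1 library left out. Groups share replicate numbers, but deviations of same-numbered libraries correlated at −0.0081, −0.020 and −0.016, and no library correlated best with its own number, so the numbers were not treated as pairs. The block gave 418 genes higher and 471 lower, with VIM at 1.76. Depth limits SNAI1, SNAI2, ZEB1 and ZEB2.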
